A study of Ovis aries with 115 samples.

Results

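Fur ewes, a Norwegian breed of high fertility after insemination with frozen-thawed semen, were compared with Suffolk ewes, an Irish breed of low fertility, at the luteal phase of a synchronised oestrous cycle. The comparison took in every library labelled with an induced cycle, the luteal phase and one of these breeds whose title and labels agreed, which gave 9 Fur and 10 Suffolk libraries, or 19 of the 115 in the series. Each library was poly(A) RNA from the cervix of a different ewe, taken after slaughter. The study's methods describe multiparous ewes of 4 to 5 years whose cycles were set with a progestagen sponge and equine chorionic gonadotropin, but they do so for ewes killed at the follicular phase, and the day of the cycle at which the luteal ewes were killed was not given in the sources used here. The series also holds follicular libraries of both breeds, from other ewes, and libraries of Belclare (Ireland) and Norwegian White Sheep (NWS, Norway). Each breed was sampled in 1 country, so breed, country and flock cannot be told apart in any of these results.

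The sheep cervix is a narrow fibromuscular canal with folds that sperm must pass. Its wall holds smooth muscle and a matrix rich in collagen, and its lining secretes mucins, carries ciliated and secretory cells and houses lymphocytes and plasma cells. In the luteal phase progesterone from the corpus luteum dominates, the mucus is scant and thick, and genes that oestradiol induces, such as the oxytocin receptor, are low.

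Total gene counts were alike in the breeds, at 14432065 to 19279616 per Fur library (median 16891982) and 12238996 to 21071028 per Suffolk library (median 17178012). Levels are given as CPM, the count of a gene scaled to a common library size after correction for library composition (TMM), which can be compared between ewes but not between genes of different length. At this depth 3 counts correspond to a mean of 0.178 CPM in the Fur and 0.184 CPM in the Suffolk libraries. In whole tissue, fewer cells of a type and less RNA per cell cannot be told apart.

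The phase labels were compared with genes that fall after oestrus, and with ADAM7, which was higher at the luteal phase. GREB1, an oestrogen-induced coactivator of the oestrogen receptor, lay between 20.2 and 85.7 CPM (median 35.7) in luteal Fur ewes and between 25.7 and 256 CPM (median 54.5) in luteal Suffolk ewes. In the synchronised follicular ewes of the same breeds its medians were 367 and 780.5 CPM, and the fall from the follicular to the luteal phase had an adjusted p of 1.83e-06 in Fur and 1.34e-07 in Suffolk. Across 15151 genes 11.7% were lower and 12.1% higher at the luteal phase in Fur ewes, and 9.04% and 9.06% in Suffolk ewes. OXTR, the oxytocin receptor, was at or below 1.03 CPM in every luteal Fur ewe, and at or below 8.13 CPM in 9 of the 10 luteal Suffolk ewes. The 8.13 CPM, in Suffolk replicate 8, lay within the range of the follicular Suffolk ewes (2.70 to 133 CPM). Suffolk replicate 7 stood apart with 226 CPM of OXTR, above the highest follicular ewe of either breed (133 CPM), which goes against its luteal label. Its GREB1 level of 256 CPM was the highest among the luteal ewes but below the lowest follicular Suffolk ewe (367 CPM). It also had the lowest smooth muscle level of the luteal Suffolk ewes, at 319 CPM summed over ACTG2 and DES. The phase test of OXTR passed in Fur (adjusted p = 0.00833) and not in Suffolk (adjusted p = 0.789). That of PADI2, an arginine deiminase, passed in Suffolk (lower at the luteal phase, adjusted p = 3.27e-04) and not in Fur (adjusted p = 0.0789). Suffolk replicate 7 had 3.91 CPM of PADI2. This lay within the range of the luteal Suffolk ewes (2.44 to 10.7 CPM) and below the lowest follicular Suffolk ewe (7.97 CPM), as its luteal label would have it. ADAM7, chosen for this check after its values were seen, was higher at the luteal phase in Suffolk (adjusted p = 1.19e-04) and Fur (adjusted p = 0.00658). Luteal Suffolk replicates 2, 3, 4, 5 and 8 had 0.397 to 1.30 CPM, within the follicular Suffolk range (0.229 to 1.43 CPM). The other luteal Suffolk ewes had 2.57 to 101 CPM. GREB1 in the former ewes was at 25.7 to 185 CPM, below every follicular Suffolk ewe. Their stage of the cycle was not tested. Fur replicate 8 stood apart in the makeup of its tissue: it had the highest smooth muscle level, 9223 CPM over the same genes, and the lowest epithelial level, 355 CPM summed over 7 marker genes. The expression profiles of Fur replicate 8 and Suffolk replicate 7 also resembled those of their own group least, with median correlations across genes of 0.917 and 0.914. Calls described here that were lost without both libraries are given with their values in that fit.

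**Figure D1:**
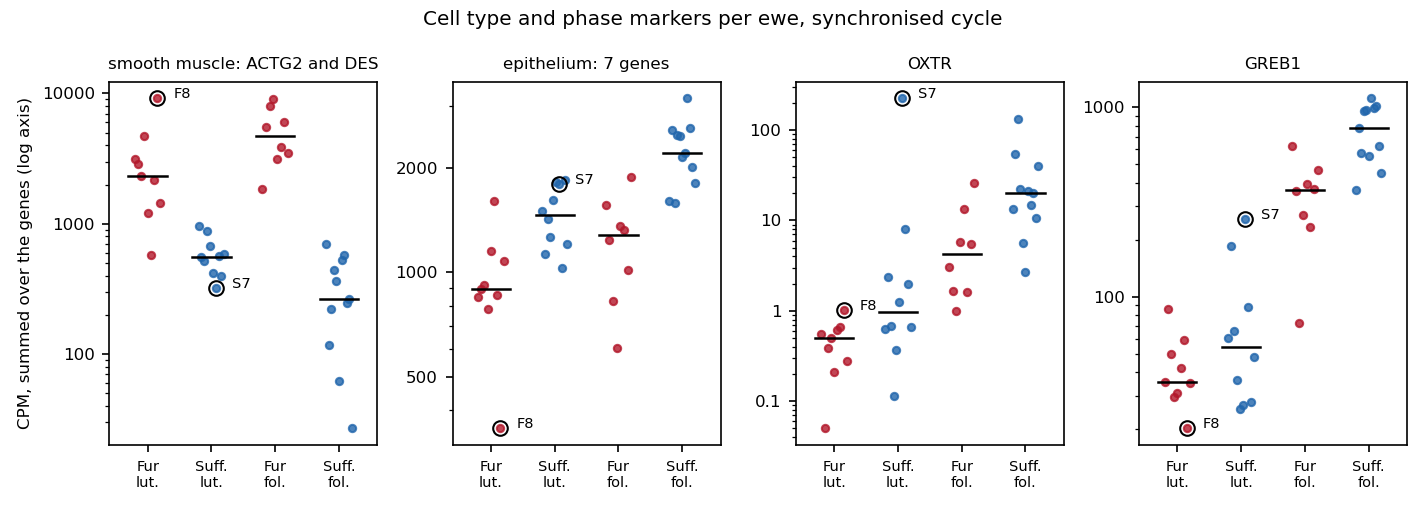
Levels of smooth muscle markers (ACTG2 and DES summed), epithelial markers (7 genes summed), OXTR and GREB1 in each Fur (red) and Suffolk (blue) ewe at the luteal (lut.) and follicular (fol.) phase of the synchronised cycle, in CPM on a log axis; a point is a ewe, a line the median, and a ewe at 0 CPM is drawn at the foot of the OXTR panel. The circled libraries are Fur replicate 8 (F8), highest in smooth muscle and lowest in epithelium, and Suffolk replicate 7 (S7), at 226 CPM of OXTR.

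Of 14614 genes tested, 2007 (13.7%) were DEGs, with an adjusted p under 0.05 and a fold change above 1.5. In Fur ewes 953 genes (6.52%) had higher expression and 1054 (7.21%) had lower expression than in Suffolk ewes. Changes above 4-fold were seen for 101 DEGs higher and 76 lower in Fur. The breeds accounted for 23.5% of the variance in log2 CPM over all genes tested, which was reached by no other of the 92378 divisions of the 19 ewes into 9 and 10 (median of all divisions 5.03%, one-sided exact permutation test, p = 1.08e-05, the smallest it can give). With Suffolk replicate 7 and Fur replicate 8 left out 1766 genes were DEGs, 1565 of them among the 2007, and the breeds accounted for 25.4% of the variance.

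For 1626 of the 2007 DEGs the sources used here gave no gene name, including 943 of the 953 higher in Fur. Of 1352 identifiers with a name, 1319 take it from a list selected for higher expression in Suffolk than in Fur at the follicular phase, in other ewes. The named genes therefore lean towards lower expression in Fur: of 1281 named genes tested, 371 (29.0%) were DEGs lower in Fur and 10 (0.781%) were DEGs higher in Fur. Counts within each group of named genes below are to be read against these shares.

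**Figure D2:**
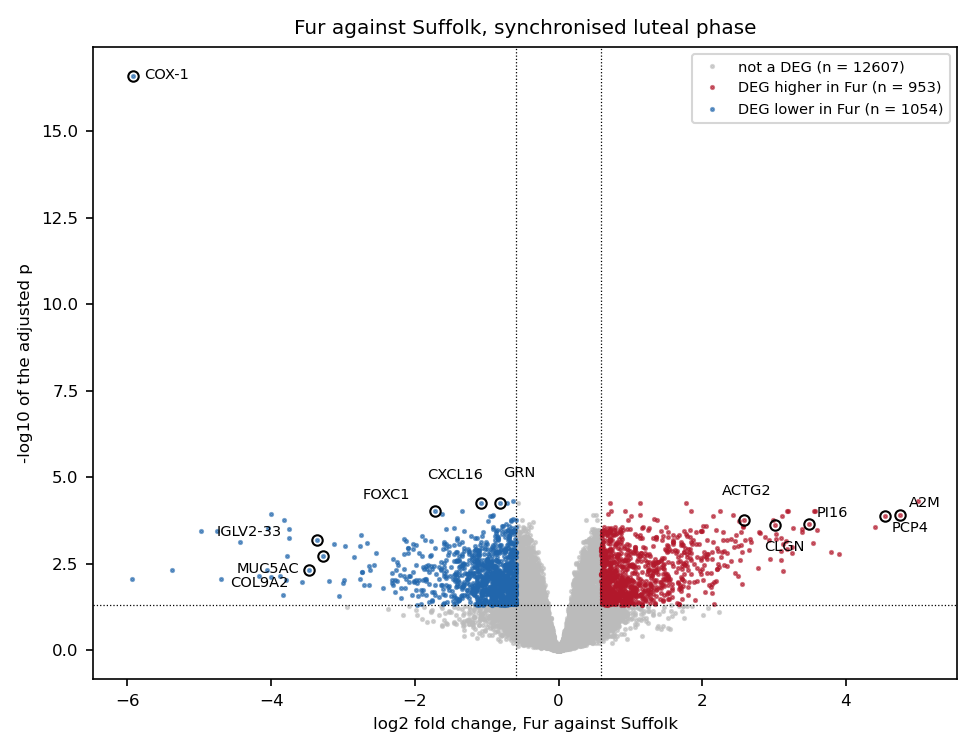
Each point is 1 of the 14614 genes tested, with its log2 fold change in Fur against Suffolk luteal ewes and −log10 of its adjusted p; dotted lines mark the limits for a DEG. COX-1 lies alone at the upper left, and 953 DEGs (red) were higher and 1054 (blue) lower in Fur.

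The difference with the smallest p lay in a mitochondrial transcript. COX-1, listed by the study as mitochondrially encoded cytochrome c oxidase subunit 1, a catalytic subunit of the last complex of the respiratory chain, lay between 26.0 and 36.8 CPM (median 31.8) in the 9 Fur ewes and between 1547 and 2616 CPM (median 1812) in the 10 Suffolk ewes. The groups were far apart and each was tight. It was 60.7-fold lower in Fur (log2 fold change −5.92, SE 0.13, adjusted p = 2.46e-17). The difference was of the same size at the follicular phase, with a log2 fold change of −6.10 and an adjusted interaction p of 0.551. Luteal NWS ewes, also sampled in Norway, had 1292 to 2126 CPM of COX-1, and luteal Belclare ewes 1751 to 3216 CPM, so among the luteal ewes of the 4 breeds only those of Fur had a low level. The other mitochondrial gene with a name, MT-ND6, which encodes a subunit of complex I, did not pass the test: its medians were 8.27 CPM in Fur and 9.74 CPM in Suffolk, with a log2 fold change of 0.07 (SE 0.22, adjusted p = 0.828). PTGS1, the cyclooxygenase that is also abbreviated COX-1, is a different gene, and with medians of 46.8 and 49.7 CPM it did not pass either (log2 fold change −0.09, SE 0.31, adjusted p = 0.857).

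Contractile genes of visceral smooth muscle were higher in Fur ewes. ACTG2, the gamma actin of smooth muscle, lay between 179 and 2204 CPM (median 689) in Fur and between 86.0 and 258 CPM (median 141) in Suffolk. Fur replicate 6 fell within the Suffolk range and the other 8 Fur ewes lay above it. The gene was 5.97-fold higher in Fur (log2 fold change 2.58, SE 0.36, adjusted p = 1.76e-04). DES, the intermediate filament desmin of muscle cells, showed the same arrangement, with 396 to 7019 CPM (median 1658) in Fur and 233 to 744 CPM (median 419) in Suffolk, and was 4.91-fold higher (log2 fold change 2.29, SE 0.40, adjusted p = 6.38e-04). Both remained DEGs without Fur replicate 8 and Suffolk replicate 7, at log2 fold changes of 2.23 and 1.77. Luteal NWS ewes had medians of 707 CPM of ACTG2 and 1650.3 CPM of DES, near those of Fur, while luteal Belclare ewes had 184 and 334 CPM, near those of Suffolk.

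PCP4, a regulator of calmodulin, was at 5.24 to 44.5 CPM (median 21.2) in Fur and at 0.0568 to 2.08 CPM (median 0.646) in Suffolk. Every Fur ewe lay above every Suffolk ewe, and the difference was 23.3-fold (log2 fold change 4.54, SE 0.60, adjusted p = 1.33e-04). ASB2, the substrate receptor of a ubiquitin ligase of muscle cells, was 5.47-fold higher in Fur (medians 32.7 and 7.50 CPM, log2 fold change 2.45, SE 0.43, adjusted p = 7.12e-04), again with 8 of 9 Fur ewes above all Suffolk ewes. The remaining muscle genes did not move together. Of 11 members of the smooth muscle and contractile list that were tested, 4 were higher (ACTG2, DES, ASB2, PCP4) and 4 lower in Fur. Each count is 36.4% of the members tested, against 0.781% higher and 29.0% lower of all named genes. The median log2 fold change was −0.14, against −0.44 over all named genes and −0.02 over all genes tested. Those lower included MRTFB, a coactivator of serum response factor (log2 fold change −0.91, adjusted p = 3.09e-04), MYH9, the heavy chain of nonmuscle myosin (−0.61, adjusted p = 8.92e-04) and, named after its values were seen, PPP1R12B, a subunit of myosin phosphatase (−0.59). MYH9 fell below the fold change limit without Suffolk replicate 6 (−0.58) or replicate 7 (−0.55). 3 members, ACTC1, PNCK and POPDC2, did not reach 1 CPM in 9 of the 19 ewes and so were not tested. For PNCK and POPDC2, replicate 6 was the only Fur ewe below 1 CPM. PNCK, a calmodulin kinase, was at 0.123 to 16 CPM (median 3.33) in Fur and at or below 0.674 CPM in Suffolk. POPDC2, a membrane protein of muscle, was at 0.678 to 10.2 CPM (median 4.03) in Fur and at or below 0.910 CPM in Suffolk.

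Outside muscle, few genes with a name were higher in Fur. A2M, which encodes the broad protease inhibitor alpha-2-macroglobulin, lay between 19.8 and 564 CPM (median 54.9) in Fur and between 1.70 and 9.52 CPM (median 3.98) in Suffolk. No Suffolk ewe reached the lowest Fur ewe. The gene was 27.0-fold higher (log2 fold change 4.76, SE 0.62, adjusted p = 1.26e-04) and Fur replicate 8 held its highest value, without which the log2 fold change was 4.05 (4.09 without both libraries that stood apart). PI16, a peptidase inhibitor that marks a class of fibroblasts, ranged from 5.57 to 59.1 CPM (median 14.5) in Fur and from 0.584 to 5.22 CPM (median 1.6) in Suffolk and was 11.2-fold higher (log2 fold change 3.49, SE 0.49, adjusted p = 2.20e-04). CLGN, a chaperone of the endoplasmic reticulum, ranged from 7.85 to 45.2 CPM (median 10.5) in Fur and from 0.442 to 4.38 CPM (median 1.64) in Suffolk and was 8.07-fold higher (log2 fold change 3.01, SE 0.43, adjusted p = 2.34e-04). The ranges of the breeds met in none of these 3 genes, nor in PCP4, and these 4 were the only named genes with every Fur ewe above every Suffolk ewe. Such a separation was found for 0.814% of all genes tested upwards and for 0.650% downwards.

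PLA2G2C, a secreted phospholipase, was 3.24-fold higher (log2 fold change 1.69, SE 0.37, adjusted p = 0.00269) and its groups overlapped, at 6.34 to 28.5 CPM in Fur and 0.643 to 11 CPM in Suffolk. Of the tested genes without a name, ENSOARG00000007731 and ENSOARG00000001497 had the smallest p among those higher in Fur. The former was at 1.36 to 36.2 CPM in Fur and 0.110 to 1.01 CPM in Suffolk ewes (log2 fold change 5.0, SE 0.53, adjusted p = 4.82e-05). The latter was at 125 to 512 CPM in Fur and 62.4 to 124 CPM in Suffolk ewes (log2 fold change 1.77, SE 0.20, adjusted p = 5.65e-05). ENSOARG00000010202 (log2 fold change −0.63, SE 0.07) and ENSOARG00000012330 (−0.72, SE 0.08) were their counterparts among genes lower in Fur, with adjusted p of 4.82e-05 and 5.41e-05. All 4 separated the breeds without overlap.

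**Figure D3:**
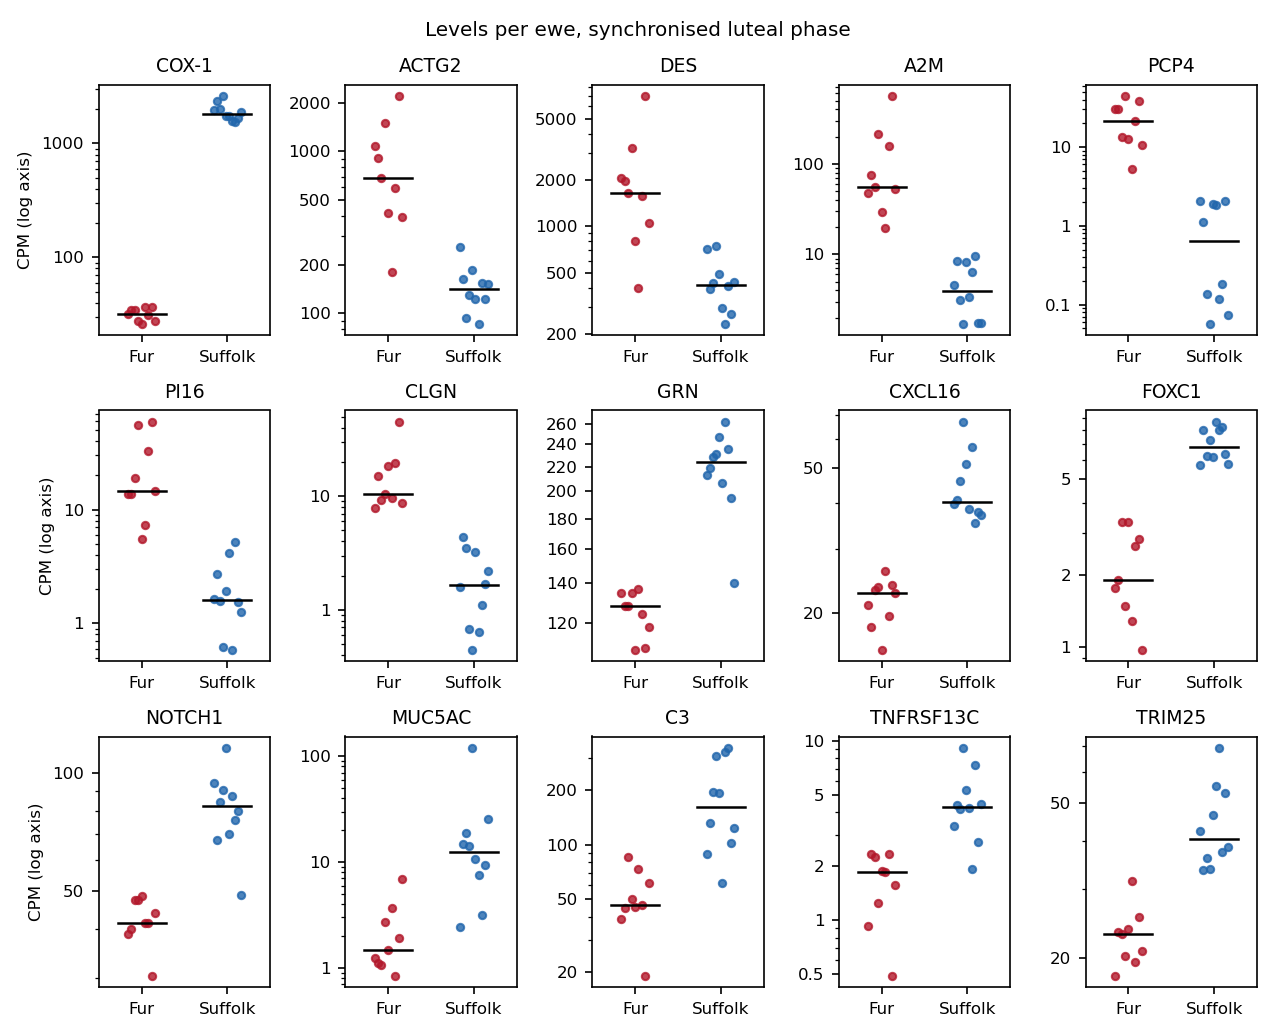
Levels of 15 genes in each Fur (red, 9) and Suffolk (blue, 10) luteal ewe in CPM on a log axis, with the median of each breed as a line; each panel has its own scale. COX-1, A2M, PCP4, PI16, CLGN, GRN, CXCL16, FOXC1, NOTCH1 and TRIM25 show no overlap, while ACTG2, DES, MUC5AC, C3 and TNFRSF13C overlap in some ewes.

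Among genes lower in Fur, several with small changes separated the breeds sharply. GRN, which encodes progranulin, a precursor of growth factors that also serves lysosomes, lay between 108 and 137 CPM (median 128) in Fur and between 140.1 and 262 CPM (median 224) in Suffolk. All Fur ewes were lower, though Suffolk replicate 10 came close to them. It was 1.76-fold lower (log2 fold change −0.82, SE 0.09, adjusted p = 5.65e-05). CXCL16, a chemokine and scavenger receptor, was at 15.8 to 26.1 CPM in Fur and 35.2 to 66.8 CPM in Suffolk and was 2.11-fold lower (log2 fold change −1.08, SE 0.13, adjusted p = 5.65e-05). FOXC1, a transcription factor of mesenchyme, was at 0.974 to 3.31 CPM in Fur and 5.75 to 8.68 CPM in Suffolk and was 3.29-fold lower (log2 fold change −1.72, SE 0.21, adjusted p = 9.48e-05). PLXNA1, a semaphorin receptor, was 1.89-fold lower (log2 fold change −0.92, SE 0.12, adjusted p = 1.29e-04), with its groups overlapping by Suffolk replicate 10 (26.0 CPM).

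Among named genes the largest fold changes downwards, after COX-1, were in genes whose Suffolk levels spread widely. TAC3, the precursor of neurokinin B, is held by 2 identifiers, whose reads may be split between them. ENSOARG00000007920 was at 0.108 to 1.05 CPM in Fur and 1.10 to 76.9 CPM in Suffolk ewes (log2 fold change −4.98, SE 0.78, adjusted p = 3.65e-04), and ENSOARG00000010440 followed the same ewes (−4.75, SE 0.73, adjusted p = 3.48e-04). No Fur ewe reached a Suffolk ewe. COL9A2, a chain of cartilage collagen, was at 0.697 to 10.1 CPM in Fur and 4.36 to 164 CPM in Suffolk, with 4 of 9 Fur ewes below all Suffolk ewes (log2 fold change −3.47, SE 0.83, adjusted p = 0.00479). ENSOARG00000016098, which has no symbol, was below every Suffolk ewe in every Fur ewe, at 2.32 to 5.17 CPM against 5.32 to 256 CPM (log2 fold change −3.78, SE 0.78, adjusted p = 0.00192), and without Suffolk replicate 7, its highest ewe, its log2 fold change was −2.84 (−2.78 without both libraries that stood apart).

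Lymphocyte and plasma cell genes were lower in Fur ewes. Of 30 lymphoid genes tested 21 were DEGs lower in Fur (70.0%, against 29.0% of all named genes) and none was a DEG higher. Their median log2 fold change was −1.04, against −0.44 over all named genes. The heavy chain IGHG3 of immunoglobulin G is held by 2 identifiers that share sequence. One ranged from 70.1 to 1467 CPM (median 536) in Fur and from 1109.6 to 12209 CPM (median 3367) in Suffolk, and the other from 15.9 to 390 CPM (median 115) and from 303 to 3894 CPM (median 992). Of the 9 Fur ewes 8 and 7 lay below all Suffolk ewes. The identifiers were 6.80-fold and 7.83-fold lower in Fur (log2 fold changes −2.77, SE 0.51, and −2.97, SE 0.55, adjusted p = 9.94e-04 and 9.91e-04). IGLV2-33, a light chain segment, was 10.3-fold lower (log2 fold change −3.36, SE 0.58, adjusted p = 6.32e-04).

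All 6 identifiers in the marker list of lymphocytes and plasma cells were lower in Fur. Their summed level was 98.8 to 1884 CPM in Fur against 1451 to 16157 CPM in Suffolk. The 2 IGHG3 identifiers made up most of these sums at both ends. They held 70.1 and 15.9 of the 98.8 CPM, and 12209 and 3894 of the 16157 CPM. TNFRSF13C, the receptor for the B cell survival factor BAFF, had a log2 fold change of −1.52 (SE 0.30, adjusted p = 0.00148), with 6 of 9 Fur ewes below all Suffolk ewes. CD27, a costimulatory receptor of memory lymphocytes, was 3.02-fold lower (log2 fold change −1.6, SE 0.37, adjusted p = 0.00381). PTPRCAP, a partner of the leukocyte phosphatase CD45, was 1.58-fold lower (−0.66, adjusted p = 0.00978), and 1.5-fold was no longer exceeded without Suffolk replicate 5 (−0.55). The plasma and B cell factor IKZF3 passed narrowly (−0.92, adjusted p = 0.0484) and kept its call only in the 4 fits without Fur replicate 3, 5 or 6 or Suffolk replicate 4. In the other 15 of 19 fits that left out 1 ewe its log2 fold change ranged from −0.97 to −0.80. Without both Fur replicate 8 and Suffolk replicate 7 the value of IKZF3 was −0.70 (adjusted p = 0.109). FLT3, a receptor of dendritic cell and lymphoid precursors, was 6.65-fold lower (−2.73, SE 0.66, adjusted p = 0.00527), with up to 15 CPM in Suffolk and at most 1.54 CPM in Fur. MICB, a ligand of natural killer receptors, did not pass (log2 fold change 0.11, SE 0.23, adjusted p = 0.737).

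Of 27 tested identifiers of the interferon response list 14 were DEGs lower in Fur (51.9%, against 29.0% of all named genes) and none was higher, with a median log2 fold change of −0.71. All 27 values were negative, as were 1151 of the 1281 values of all named genes. TRIM25, a ubiquitin ligase that activates the RNA sensor RIG-I, lay between 18 and 31.5 CPM (median 23.1) in Fur and between 33.6 and 69.1 CPM (median 40.5) in Suffolk, with no overlap (log2 fold change −0.98, SE 0.14, adjusted p = 1.87e-04). PARP12, an interferon-induced ADP-ribosyltransferase, and TYK2, a kinase of the interferon receptors, lay at the fold change limit (both −0.59, SE 0.12, adjusted p = 0.00197 and 0.00148). A fold change of 1.5 was not reached for PARP12 without Fur replicate 2, 4, 5, 7 or 8 or Suffolk replicate 1, 4, 5 or 10, nor for TYK2 without Fur replicate 2, 4, 5, 8 or 9 or Suffolk replicate 2, 3, 5, 6 or 9, with a log2 value of −0.55 as the weakest for both. Without Suffolk replicate 7 and Fur replicate 8 the list held 7 DEGs in place of 14, and PARP12 was under the limit (−0.57).

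Myeloid genes gave 6 DEGs lower in Fur of 15 tested (40.0%, against 29.0% of all named genes). Their median log2 fold change was −0.49, against −0.44 over all named genes. PLEK, the protein kinase C substrate pleckstrin, was 2.72-fold lower (log2 fold change −1.44, SE 0.36, adjusted p = 0.00638), and LCP1, the leukocyte plastin, 1.85-fold lower (−0.89, SE 0.23, adjusted p = 0.00842). Without Suffolk replicate 7 and Fur replicate 8 the list held 3 DEGs. LYN, a kinase of B and myeloid cells, fell below the limit without Fur replicate 8 (−0.66 with it, −0.55 without) and without both libraries (−0.52). Of the neutrophil markers PADI4, an arginine deiminase, was lower (−1.12, adjusted p = 0.0379), a call lost without Fur replicate 1, 3, 4, 5, 8 or 9 or Suffolk replicate 2, 3 or 7, with −0.80 without Suffolk replicate 2. Without both Suffolk replicate 7 and Fur replicate 8 PADI4 did not pass (−0.83, adjusted p = 0.105). CD177, a neutrophil surface protein, did not pass (−0.11, SE 0.45, adjusted p = 0.879), and CXCR2, their chemokine receptor, was below 1 CPM in every ewe of both breeds. Summed over the list the neutrophil markers lay between 5.10 and 17.1 CPM in Fur and between 7.69 and 42.0 CPM in Suffolk. Among macrophage markers STAB1, a scavenger receptor, was lower (−0.90, adjusted p = 0.0401), a call lost without Fur replicate 2, 3, 5, 7 or 9 or Suffolk replicate 4, 5, 7, 8 or 9, with −0.67 without Suffolk replicate 7 and −0.70 (adjusted p = 0.0843) without both libraries, and GPNMB, a glycoprotein of lysosome-rich phagocytes (−0.26, adjusted p = 0.707), and ACP5, an acid phosphatase (−0.40, adjusted p = 0.146), did not pass. The macrophage markers summed to 108 to 204 CPM in Fur and 141 to 326 CPM in Suffolk. AQP9, a water and glycerol channel of leukocytes, did not pass (0.47, SE 0.58, adjusted p = 0.561).

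Complement, acute phase and plasma proteins gave 8 DEGs lower and 1, A2M, higher in Fur, of 14 tested. The share lower was 57.1%, against 29.0% of all named genes, and the median log2 fold change −0.90, against −0.44. The central complement component C3 is held by 2 identifiers that may share reads. They were at 19 to 85.0 and 24.5 to 137 CPM in Fur, and at 61.6 to 339 and 110.3 to 742 CPM in Suffolk. Of the 9 Fur ewes 6 and 7 lay below all Suffolk ewes, and C3 was 3.63-fold and 4.42-fold lower (log2 fold changes −1.86, SE 0.33, and −2.15, SE 0.37, adjusted p = 6.68e-04 and 6.07e-04). APOE, the lipid carrier apolipoprotein E, was 1.87-fold lower (log2 fold change −0.90, SE 0.22, adjusted p = 0.00586). SERPINF2, the inhibitor of plasmin, was 2.08-fold lower (log2 fold change −1.06, SE 0.34, adjusted p = 0.0255), from a median of 1.2 CPM in Suffolk to 0.473 CPM in Fur.

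**Figure D4:**
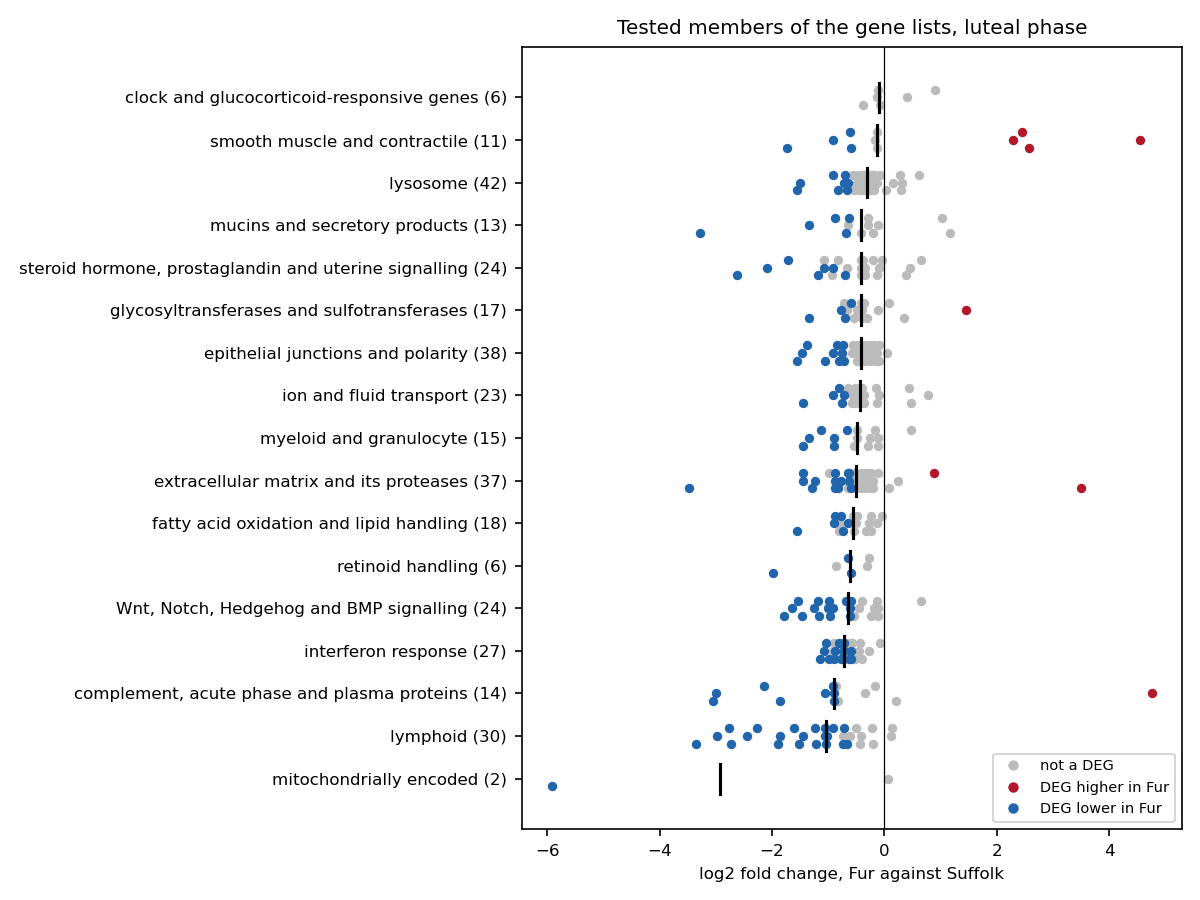
Log2 fold change in Fur against Suffolk luteal ewes of every tested member of the 17 gene lists, with the number tested in brackets; grey points are not DEGs, red and blue points are DEGs higher and lower in Fur, and black lines are list medians. The list medians lie below 0, while ACTG2, DES, ASB2, PCP4, A2M, PI16, EGFL6 and GALNT15 lie to the right as the DEGs higher in Fur.

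Mucins differed in size of change. MUC5AC, a gel-forming mucin, lay between 0.839 and 6.96 CPM (median 1.47) in Fur and between 2.44 and 119.7 CPM (median 12.5) in Suffolk. The groups overlapped, with 6 of 9 Fur ewes below all Suffolk ewes, and it was 9.72-fold lower (log2 fold change −3.28, SE 0.67, adjusted p = 0.00184). Suffolk replicate 5 held the highest value, and without it the log2 fold change was −2.35 (adjusted p = 0.00234). MUC16, a membrane mucin, was 2.55-fold lower (medians 307 and 619 CPM, log2 fold change −1.35, SE 0.28, adjusted p = 0.00193). MUC1, the membrane mucin of glandular surfaces, was 1.6-fold lower (−0.68, SE 0.22, adjusted p = 0.0281), which ended without Fur replicate 1 (adjusted p = 0.0505) or Fur replicate 8 (−0.56) and without both libraries that stood apart (−0.52). The other gel-forming mucin with a name, MUC5B, did not pass, with medians of 34.8 CPM in Fur and 52.5 CPM in Suffolk (−0.65, SE 0.35, adjusted p = 0.159). In all 5 of 13 tested secretory genes were DEGs lower in Fur (38.5%, against 29.0% of all named genes). The remaining ones were SPINT1, an inhibitor of membrane serine proteases (−0.63, adjusted p = 0.0131), and LCN2, a siderophore-binding defence protein named after its values were seen (−0.88). SPINT1 fell below the fold change limit without Fur replicate 8 (−0.52), Suffolk replicate 4 (−0.57) or Suffolk replicate 5 (−0.58). Without Suffolk replicate 7 and Fur replicate 8 together SPINT1 was at −0.50, and the list gave 2 DEGs lower and 1 higher. SCGB2A1, a secretoglobin, varied from 0.139 to 21.3 CPM among Fur ewes and from 0 to 27.8 CPM among Suffolk ewes and did not pass (−0.11, SE 1.02, adjusted p = 0.944). LMAN1L, a lectin of the secretory pathway (1.52, SE 0.72, adjusted p = 0.114), and ADAM7, a secreted metalloprotease-like protein (1.16, SE 0.97, adjusted p = 0.375), did not pass either.

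Enzymes that build and modify sugar chains gave 4 DEGs lower (23.5%, against 29.0% of all named genes) and 1 higher of 17 tested. Their median log2 fold change was −0.42, close to the median of all named genes. HS6ST1, which adds sulfate to heparan sulfate, was at 1.67 to 2.50 CPM in Fur and 2.20 to 7.25 CPM in Suffolk, where replicate 10 was lowest (log2 fold change −1.34, SE 0.17, adjusted p = 9.48e-05). B4GALT1, a galactosyltransferase, separated the breeds at 26.5 to 43.3 and 44.9 to 75.3 CPM (−0.70, SE 0.11, adjusted p = 3.34e-04). MAN2A2, a mannosidase of N-glycan maturation, was 1.70-fold lower (−0.77, SE 0.11, adjusted p = 2.55e-04). GALNT15, which starts O-linked chains, was 2.73-fold higher in Fur (1.45, SE 0.51, adjusted p = 0.0376), with 26.8 CPM in its highest ewe against a Fur median of 2.59 CPM, and without Fur replicate 8 its log2 fold change was 0.66 (adjusted p = 0.18), and without Suffolk replicate 7 as well it was 0.58 (adjusted p = 0.243). The call was also lost without Fur replicate 4 or 7 or Suffolk replicate 1, 2, 6, 7 or 9, where the log2 fold change was at least 1.37.

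The share of epithelial genes that were DEGs was near that of all named genes. Of 38 tested junction and polarity genes 10 were DEGs lower in Fur (26.3%, against 29.0% of all named genes) and none was a DEG higher, and the median log2 fold change was −0.43, against −0.44 over all named genes. Negative values were found for 37 of the 38, and for 1151 of all 1281 named genes. EPPK1, the cytoskeletal linker epiplakin, was 2.61-fold lower (−1.38, SE 0.30, adjusted p = 0.00257), with 8 of 9 Fur ewes below all Suffolk ewes. OVOL2, a transcription factor that maintains epithelial state, was 2.07-fold lower (−1.05, SE 0.24, adjusted p = 0.00335), and CELSR1, a planar polarity cadherin, 1.89-fold lower (−0.91, SE 0.21, adjusted p = 0.00346). CDH1, E-cadherin, was at 111 to 536 CPM (median 257) in Fur and 326 to 705 CPM (median 489) in Suffolk (−0.81, SE 0.22, adjusted p = 0.00931). The claudins of tight junctions CLDN3 (−0.47, adjusted p = 0.0868), CLDN4 (−0.44, adjusted p = 0.0442) and CLDN7 (−0.34, adjusted p = 0.175) were not DEGs, nor was PAX8, the transcription factor of Müllerian epithelium (−0.51, adjusted p = 0.0777). Of the 7 glandular and surface markers 2 were DEGs, and their summed level was 355 to 1607 CPM in Fur and 1031 to 1847 CPM in Suffolk. Markers of ciliated cells gave no DEG: CFAP52, DRC7, RSPH9 and CCDC151 had log2 fold changes from −0.04 to 0.30, and their sums were 73.9 to 235 CPM in Fur and 48.1 to 300.1 CPM in Suffolk.

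Squamous markers were low in both breeds and lower in Fur. Their sum was 16.8 to 74.0 CPM in Fur and 49.2 to 121 CPM in Suffolk. KRT16, a keratin of stratified epithelium, was 1.86-fold lower (−0.89, SE 0.25, adjusted p = 0.0113), and OVOL1, a factor of epidermal differentiation, 1.79-fold lower (−0.84, SE 0.26, adjusted p = 0.0211), a call lost without Suffolk replicate 7 and Fur replicate 8 (−0.62, adjusted p = 0.059). KRT1, a keratin of suprabasal layers, reached 3.14 CPM in Fur, with no count in Fur replicate 8, and 14.3 CPM in Suffolk (−1.76, SE 0.62, adjusted p = 0.0365), a call lost without Fur replicate 1, 2, 3, 5, 6, 7 or 9 or Suffolk replicate 1, 2 or 8, with −1.28 without Suffolk replicate 2. DSC1, a desmosomal cadherin, was too low to be tested (at most 1.02 CPM in any ewe).

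Genes of ion and fluid transport gave 5 DEGs lower of 23 tested (21.7%, against 29.0% of all named genes), and none higher. LRRC8A, a subunit of the volume-regulated anion channel, was 1.64-fold lower (−0.71, SE 0.16, adjusted p = 0.00313). KCNJ2, an inward rectifier potassium channel, was 1.90-fold lower (−0.92, SE 0.21, adjusted p = 0.00385), and KCNK6, a background potassium channel, 1.68-fold lower (−0.75, SE 0.20, adjusted p = 0.00937). Lysosomal genes gave 8 DEGs lower of 42 tested (19%, against 29.0% of all named genes), GRN having the smallest p. PQLC2, an exporter of cationic amino acids, was 1.88-fold lower (−0.91, SE 0.17, adjusted p = 0.00114), and ACP2, an acid phosphatase, 1.57-fold lower (−0.65, SE 0.12, adjusted p = 8.11e-04), which came under the fold change limit without Suffolk replicate 7 and Fur replicate 8 (−0.57).

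Wnt, Notch, Hedgehog and BMP genes were DEGs lower in Fur in 15 of 24 tested (62.5%, against 29.0% of all named genes), with no DEG higher. Their median log2 fold change was −0.65, against −0.44 over all named genes. NOTCH1, a receptor of contact signalling, lay between 30.3 and 48.6 CPM (median 41.5) in Fur and between 48.7 and 116 CPM (median 82.2) in Suffolk, the highest Fur ewe lying just under the lowest Suffolk ewe (log2 fold change −0.96, SE 0.13, adjusted p = 1.29e-04). WNT10B, a secreted ligand of the canonical pathway, was 1.61-fold lower (−0.69, SE 0.11, adjusted p = 4.44e-04), which came under the fold change limit without Suffolk replicate 7 and Fur replicate 8 (−0.58). WNT5A, a ligand of the noncanonical pathway, was 2.01-fold lower (−1.01, SE 0.18, adjusted p = 7.28e-04), with 7 of 9 Fur ewes below all Suffolk ewes.

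Extracellular matrix genes gave 14 DEGs lower (37.8%, against 29.0% of all named genes) and 2 higher (5.41%, against 0.781%) of 37 tested. PODNL1, a small leucine-rich proteoglycan, was at 3.63 to 5.93 CPM in Fur and 5.89 to 23.8 CPM in Suffolk (−1.45, SE 0.22, adjusted p = 2.96e-04). AGRN, a heparan sulfate proteoglycan of basement membranes, was 1.83-fold lower (−0.87, SE 0.14, adjusted p = 4.15e-04). BMP1, the protease that trims procollagens, was at 48.8 to 106 CPM in Fur and 109 to 173 CPM in Suffolk, without overlap (−0.65, SE 0.14, adjusted p = 0.00200), and without Fur replicate 8 the value was −0.57, and without both libraries that stood apart −0.53, both under the fold change limit. EGFL6, a secreted matrix protein, was the second DEG higher in Fur beside PI16 (0.89, SE 0.31, adjusted p = 0.0380), and the call was lost without Fur replicate 2, 7 or 9 or Suffolk replicate 3, 5, 7 or 10, with 0.69 without Fur replicate 7. Of the other fibroblast markers PDGFRB, a growth factor receptor of mesenchymal cells, was 1.64-fold lower (−0.71, SE 0.17, adjusted p = 0.00555). FAP, a membrane protease of activated fibroblasts, lay at the limit (−0.59, SE 0.19, adjusted p = 0.0257) and fell under it without Fur replicate 6 or 8 or Suffolk replicate 2, 4, 8 or 10, to −0.49 without Suffolk replicate 8 and −0.54 without both libraries that stood apart. MMP2, a gelatinase, did not pass (−0.64, SE 0.25, adjusted p = 0.0561). The fibroblast markers summed to 274 to 725 CPM in Fur and 534 to 1394 CPM in Suffolk.

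Endothelial markers summed to 504 to 817 CPM in Fur and 734 to 1458 CPM in Suffolk. VWF, von Willebrand factor, was at 419 to 684 CPM in Fur and 623 to 1208 CPM in Suffolk (−0.71, SE 0.13, adjusted p = 8.28e-04). ROBO4 (−0.67, adjusted p = 0.0543), SOX17 (−0.23, adjusted p = 0.458) and CLEC1A (−0.45, adjusted p = 0.253) did not pass.

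Steroid hormone, prostaglandin and uterine genes gave 7 DEGs lower and none higher of 24 tested. The share lower, 29.2%, was near the 29.0% of all named genes. Besides FOXC1, the smallest p was that of PAPPA, a protease that frees insulin-like growth factors, at 0.434 to 2.52 CPM in Fur and 1.71 to 13.2 CPM in Suffolk (−2.09, SE 0.42, adjusted p = 0.00155). LIF, a cytokine of implantation, was at 1.26 to 3.02 CPM in Fur and 1.51 to 70.2 CPM in Suffolk (−2.62, SE 0.63, adjusted p = 0.00488). Its highest ewe was Suffolk replicate 7, and without that library the log2 fold change was −1.57 (adjusted p = 0.00541), as it was without both libraries that stood apart (adjusted p = 0.00816). GREB1 did not pass (−0.94, adjusted p = 0.0982), nor did PADI2, an arginine deiminase (0.39, SE 0.32, adjusted p = 0.369). Among genes of retinoid handling 3 of 6 tested were DEGs lower in Fur. STRA6, the cellular receptor for retinol-binding protein, was at 0.325 to 26.9 CPM in Fur and 10.5 to 182 CPM in Suffolk (−1.99, SE 0.60, adjusted p = 0.0175), and without Suffolk replicate 7, its highest ewe, it did not pass (−1.17, adjusted p = 0.0507), while without Fur replicate 8 as well it passed (−1.01, adjusted p = 0.0242). RBP4, the carrier of retinol in plasma (−0.59, adjusted p = 0.0394), lost its call without Fur replicate 1, 2, 3, 6, 7, 8 or 9 or Suffolk replicate 4, 7 or 8, with −0.44 without Suffolk replicate 8 and −0.44 (adjusted p = 0.0928) without both libraries that stood apart.

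Lipid genes gave 6 DEGs lower of 18 tested (33.3%, against 29.0% of all named genes). ATP8A2, a phospholipid flippase, was 2.94-fold lower (−1.56, SE 0.40, adjusted p = 0.00813), SOAT1, which esterifies cholesterol, 1.85-fold lower (−0.88, SE 0.23, adjusted p = 0.00743), and ABCA2, a lipid transporter, 1.57-fold lower (−0.65, SE 0.16, adjusted p = 0.00582), the last under the fold change limit without Fur replicate 8 (−0.57) but not without both libraries that stood apart (−0.63). None of 6 clock and glucocorticoid-responsive genes was a DEG, and KLF9, an immediate target of glucocorticoid and progesterone receptors, had the smallest p of them (−0.38, SE 0.16, adjusted p = 0.0815). Further genes that the study singled out in other comparisons did not pass here: CCER2 (−0.02), SLC16A6, a member of the monocarboxylate transporter family (−0.48), and TRPM1, a cation channel (−1.17, adjusted p = 0.107).

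Smooth muscle level differed between the breeds, so the breeds were also compared with the level of ACTG2 and DES, averaged as log2 CPM, as a covariate. Then 1820 genes were DEGs, of which 483 were among the 2007. Over all genes the median SE of the log2 fold change was 0.15 without the covariate and 0.23 with it. Over all genes 222 of the 1054 DEGs lower in Fur were kept, and 261 of the 953 higher. Beside that general loss, lymphoid DEGs numbered 2 in place of 21. Some of their log2 fold changes stayed about as large: FLT3 had −2.73 without and −2.77 with the covariate (adjusted p = 0.0614), and IGLV2-33 had −3.36 and −3.02 (adjusted p = 0.0432). Others did not: CD27 had −1.60 without and −1.04 with it (adjusted p = 0.217), and the sign of IKZF3 turned. COX-1 (−6.04, adjusted p = 2.30e-13), A2M (1.83, adjusted p = 0.0464), PCP4 (2.6, adjusted p = 0.0285), CLGN (2.20, adjusted p = 0.0219), GRN (−0.76, adjusted p = 0.00793), CXCL16 (−1.08, adjusted p = 0.00595), FOXC1 (−1.85, adjusted p = 0.00682) and NOTCH1 (−0.88, adjusted p = 0.0142) were among those that stayed DEGs. The IGHG3 identifiers had −2.97 and −2.77 without the covariate and −2.86 and −2.57 with it, where they no longer passed (adjusted p = 0.0614 and 0.0626), and MUC5AC likewise had −3.28 and −3.05 (adjusted p = 0.0544). Calls were also lost, with smaller values, for PI16 (1.54, adjusted p = 0.0874), C3 (−1.18 and −1.32, adjusted p = 0.13 and 0.128) and CDH1 (0.18, adjusted p = 0.555). The summed muscle level was 575 to 9223 CPM in Fur and 319 to 969 CPM in Suffolk, and its part and the part of breed in these calls cannot be told apart.

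At the synchronised follicular phase, in 8 Fur and 11 Suffolk ewes that share no animal with the luteal groups, 2005 of 15151 genes (13.2%) were DEGs. Among 14614 genes tested at both phases 820 were DEGs in the same direction at both, which is 40.9% of the luteal DEGs and 44.0% of the follicular ones. Of DEGs higher in Fur at the luteal phase 51.8% were again DEGs higher at the follicular phase, and of those lower 30.9% were again DEGs lower. The sign was the same at the follicular phase for 93.7% of the former and 89.5% of the latter, against 74.0% of all genes tested at both. The log2 fold changes had a Pearson r of 0.67 across genes, which are not independent of each other. The luteal DEGs had a median absolute log2 fold change of 0.92 at the luteal phase and 0.59 at the follicular phase, where they had not been selected.

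**Figure D5:**
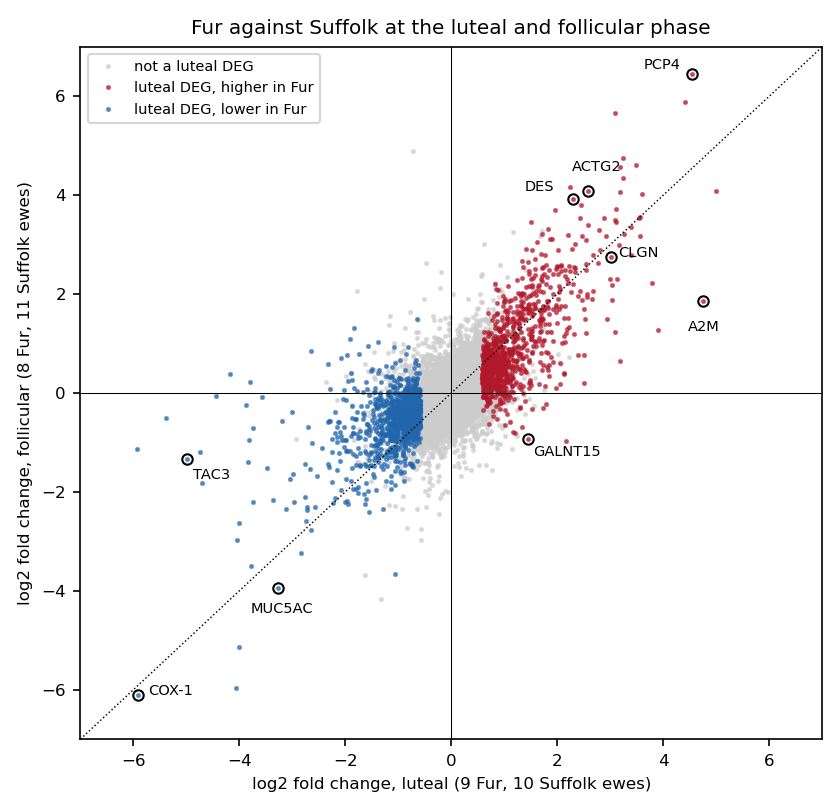
Log2 fold change in Fur against Suffolk for each gene at the luteal (x axis) and follicular (y axis) phase of the synchronised cycle, measured in different ewes; red and blue points are DEGs of the luteal phase and the dotted line marks equal values. COX-1 and CLGN lie near the line, PCP4, ACTG2 and DES above it, and A2M and TAC3 nearer to the x axis.

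Values side by side differed between genes. ACTG2 and DES had log2 fold changes of 2.58 and 2.29 at the luteal phase and of 4.09 and 3.93 at the follicular phase, while A2M had 4.76 and 1.86. The change of TAC3 (ENSOARG00000007920) was −4.98 and −1.34. GALNT15 was higher in Fur at the luteal phase (1.45) and had a value of −0.93 at the follicular phase. In the test of these differences none of them passed, with adjusted interaction p of 0.223 for ACTG2, 0.243 for DES, 0.0888 for A2M, 0.0789 for TAC3 and 0.0799 for GALNT15. The interaction of breed and phase passed for 5 of 15151 genes (0.0330%), none of which has a name, while 2202 had an unadjusted p under 0.05 and DESeq2's Wald test called 201. In counts simulated from the same ewes, with 200 genes changed, the interaction test recovered 45% of 2-fold and 87% of 4-fold differences. In that setting smaller differences between the phases were often not detectable. Named genes of smallest interaction p besides TAC3 were GABARAPL1, an autophagy protein (0.10 at the luteal and −0.45 at the follicular phase, adjusted interaction p = 0.0590), BSDC1 (−0.08 and −0.47, 0.0590), TBCEL, a tubulin chaperone-like protein (0.41 and −0.51, 0.0611), and RASGRF1, an exchange factor for Ras, too low for the luteal test (−2.21 at the follicular phase, 0.0530).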

How the data were processed

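RNA was sequenced from the cervix of ewes with a stranded poly(A) library kit. Per the study's methods reads were trimmed and mapped to Oar_v3.1 with STAR (2.6.1b in the submitters' processing notes), with at most 2 mismatches, and featureCounts (Subread 1.6.3) assigned uniquely mapped pairs to Ensembl genes. The files the authors deposited hold raw counts per gene for 27054 identifiers, without normalization. Pairs that match several places or differ more from the reference are therefore missing, and copies of a gene may share reads.

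Samples were grouped by their labels. A Suffolk sample whose title and labels disagree entered no comparison. The test in R 4.3.3 with edgeR 4.0.16 (TMM, quasi-likelihood F test, Benjamini-Hochberg adjustment) covered genes reaching 1 CPM in 9 or more of 19 ewes. DEG status needed both an adjusted p below 0.05 and a fitted fold above 1.5. The SE is the log2 fold change divided by the square root of F. DESeq2's likelihood ratio test, named in the study's methods, and its Wald test (1.42.0) were alternatives. Phases were compared in a 4-group fit of 38 ewes (at least 1 CPM in at least 8). Variance shares used log2 CPM with a prior count of 2. Libraries of a group never agreed within counting noise (lowest chi-square per degree of freedom 15.38 over 81 pairs). That libraries are separate ewes was taken from the labels; where that fails, p-values measure technical spread. In simulated counts of the 14614 genes, 200 of them changed, the breed test recovered 77% of 2-fold and 96% of 4-fold changes and called 8 unchanged genes. In the data 4428 genes had an adjusted p under 0.05, so the simulation does not give the number of false calls among the DEGs.

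Members, gene lists and tests were chosen with earlier results of these data known. Genes named are the 8 named DEGs of smallest p and the 5 of largest fold change per direction, genes of the study's first supplementary tables, PTGS1, COX-1 and MT-ND6, up to 3 DEGs per direction of each list (otherwise its member of smallest p), 5 named genes of smallest interaction p, 2 unnamed identifiers per direction, and cell type markers. Some genes that this rule names are not reported here. Names come only from the study's supplementary tables. The authors' tables of fold changes were not used. Alternatives were other size factors, tests, filters and fold change limits, all 4 breeds in 1 fit, a smooth muscle covariate, the replicate number as a block, each ewe left out, and, chosen after seeing the data, Suffolk replicate 7 and Fur replicate 8 both left out.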

Additional observations from a re-analysis of the deposited data

Results flagged for a closer look

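Among 228 groups of ewes, 1 gene in 1 breed each, 30 held a ewe that lay farther from the others than Dixon's 95% limit allows; chance alone marks about 1 in 20 groups, and genes of a ewe are not independent. Fur replicate 8 gave 18 of the 30. It was lowest of the Fur ewes in CPM for the following genes, each given with its nearest other Fur ewe. Among epithelial and secretory genes these were CLDN3 (24.4, next 44.7), MUC1 (104, next 267), MUC5B (6.18, next 20.8), OVOL2 (2.66, next 6.88), SPINT1 (19.7, next 39.9), KRT1 (0, next 0.560), the ciliary gene RSPH9 (10.5, next 21.0) and the potassium channel KCNK6 (1.46, next 3.49). Among others they were ABCA2 (25.9, next 42.6), MRTFB (17.4, next 26.3), NOTCH1 (30.3, next 38.9), SOAT1 (6.62, next 15.6), SOX17 (18.1, next 37) and STRA6 (0.325, next 4.81). The same ewe was highest for BSDC1 (52.8, next 39.4), KLF9 (21.3, next 11.5), PLA2G2C (28.5, next 12.3) and ENSOARG00000012330 (21.0, next 16.7).

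Suffolk replicate 7 was lowest of the Suffolk ewes for LMAN1L (0.234 CPM, next 8.27) and TYK2 (181, next 255) and highest for STRA6 (182, next 35). Suffolk replicate 10 was lowest for GRN (140.1, next 195), HS6ST1 (2.20, next 4.67) and PLXNA1 (26.0, next 45), genes that were lower in Fur. Single marks fell on Fur replicate 1 for RBP4 (33.6, next 50.6), Fur replicate 6 for STAB1 (0.493, next 1.58), Suffolk replicate 2 for KRT16 (31.3, next 57.2), Suffolk replicate 4 for IKZF3 (2.38, next 5.58), Suffolk replicate 5 for CD27 (13.5, next 5.38) and Suffolk replicate 6 for ACP5 (224, next 145).

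For 5 genes without a name the difference between Fur and Suffolk itself differed between the luteal and the follicular phase (edgeR, interaction term). ENSOARG00000000118 had a log2 fold change of −0.19 at the luteal and 2.45 at the follicular phase (interaction −2.64, SE 0.43, adjusted p = 0.00657). ENSOARG00000004905 had −0.21 and 0.95 (interaction −1.16, SE 0.22), ENSOARG00000003228 −1.36 and 1.03 (−2.39, SE 0.46), ENSOARG00000003793 −0.08 and 0.72 (−0.80, SE 0.16) and ENSOARG00000001979 −1.22 and 0.55 (−1.78, SE 0.35), each with an adjusted p of 0.0373. Without Suffolk replicate 7 and Fur replicate 8 the adjusted p was 0.0597 for ENSOARG00000003228 and 0.0617 for ENSOARG00000001979.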

How the results depend on the processing

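The fold change limit moved the number of DEGs most, to 4428 without it (2118 higher and 2310 lower in Fur) and to 224 where the fold change itself was tested against 1.5 (155 higher, 69 lower). With 1 ewe left out it ranged from 1763 (without Fur replicate 1) to 2253 (without Suffolk replicate 10), with 844 to 1083 higher and 919 to 1170 lower, and 1337 of the 2007 DEGs were called in all 19 such fits. The share of variance between breeds was then 22.5% to 25.8%. DESeq2's Wald test gave 2237 DEGs (1993 of the 2007), and other filters 1700 to 2405. The interaction count was 201 with DESeq2's Wald test, 2 without a filter on low counts, 23 with the smooth muscle covariate and 12 with the replicate block. The replicate block gave 2125 DEGs for breed. The numbers share no stated animal, day or batch, and deviations of same-numbered ewes correlated at −0.34 to 0.31 (9 pairs, 5 over 0.1, 3 of 9 Fur ewes correlating best with their own number). With the smooth muscle covariate 1820 of 14614 genes were DEGs, and 222 of the 1054 DEGs lower in Fur were kept. In that fit DEGs numbered 3 among smooth muscle genes, 1 among mucins, 3 among epithelial, 2 among ion transport, 2 among lymphoid, 0 among myeloid, 1 among interferon, 2 among complement, 8 among matrix, 3 among steroid, 0 among retinoid, 5 among Wnt and Notch, 3 among lipid and 1 among clock genes. Signs then turned for ASB2 (−0.17), CDH1 (0.18), CELSR1 (0.01), DES (−0.29), IKZF3 (0.54), LCP1 (0.19), LYN (0.03), MUC1 (0.16), STRA6 (0.38) and GALNT15 (−1.57, adjusted p = 0.0387, the single one to pass). DES is part of that covariate; for the others the cause was not tested. Without Suffolk replicate 7 and Fur replicate 8, chosen after seeing the data, DEGs numbered 3 among mucins, 6 among epithelial, 3 among myeloid, 7 among interferon and 1 among retinoid genes, and 15 of the 83 named calls were lost, including OVOL1 (adjusted p = 0.059), WNT10B (−0.58) and ACP2 (−0.57). No other setting that was run turned the direction of a named DEG. Depth limits genes near 3 counts, and breeds sampled in 1 country each limit all comparisons.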
